A study of Mus musculus with 8 samples.

Results

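The 43 genes described here are mouse genes of the chemokine, cytokine and NF-kB response. They were taken as a named list of symbols that was drawn up with earlier results of these data known. All 43 were matched by symbol among the 49585 genes counted. The study put mice on a high-fat, choline-deficient (HFCD) diet from the age of 21 days, kept them on it for 3 months and sequenced total RNA of the liver. Males of 3 genotypes were used, in 8 livers. The 3 LP245/+ livers carried the Alb-Cre transgene (Alb-CreTG) and 1 Trp53wm-R245W allele, which makes wild-type p53 until Cre converts it to the missense mutant p53R245W, beside 1 wild-type allele. The 2 LPfl/+ livers carried Alb-CreTG and 1 floxed Trp53 allele (Trp53fl/+), which Cre deletes. The 3 control livers, called LP+/+, are labelled Cre-negative (Alb-Cre0), replicates 1 and 2 with Trp53fl/+ and replicate 3 with Trp53wm-R245W/+, so by the labels they held an unrecombined copy of the same alleles. The study's text differs from these labels and describes LP+/+ mice as Alb-Cre carriers with unaltered p53, while its methods allow Cre-negative littermates as controls, and the labels were followed here. On the labels, LP245/+ and LPfl/+ livers differ from LP+/+ livers in the Cre transgene as well as in the p53 allele, and Cre and allele cannot be told apart in those comparisons. Alb-Cre acts in hepatocytes and bile duct cells, and other liver cells stay wild-type. Each liver was taken as 1 animal, so the p-values set differences between genotypes against the spread between livers, estimated over all 3 genotypes.

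Chemokines are small secreted proteins that draw leukocytes to a tissue through G protein-coupled receptors, and cytokines such as IL1 beta and TNF alert neighbouring cells. Both are switched on by NF-kB, a family of transcription factor dimers held in the cytoplasm by inhibitor proteins until a receptor, among them Toll-like receptors that sense microbial products, sets them free. In a fatty liver these genes are mainly read out from Kupffer cells (the resident macrophages), recruited monocytes and sinusoidal endothelium, and in part from hepatocytes. In bulk RNA, fewer cells of a type and less RNA per cell cannot be told apart.

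The libraries held 26304526 to 31370714 counts. The 8 hepatocyte markers (Alb, Ttr and others) summed to between 2896658 and 4275672 normalized read counts in a liver, where a normalized read count is a count divided by the DESeq2 size factor of its library. Trp53 had 226, 258 and 202 normalized read counts in LP+/+ replicates 1 to 3, 127 and 178 in LPfl/+ replicates 1 and 2, and 316, 294 and 193 in LP245/+ replicates 1 to 3. Cdkn1a, a p53 target whose product p21 holds the cell cycle, was at 14.5, 25.3 and 27.5 in LP245/+ livers. It was at 75.0 and 100 in LPfl/+ livers and between 138 and 188 in LP+/+ livers. The libraries carry numbers of 2 series: LP245/+ replicates 1 to 3 and LP+/+ replicates 2 and 3 were numbered in the first, and LP+/+ replicate 1 and both LPfl/+ livers in the second. What the series stand for is not stated in the labels. The first principal component over all genes tested, the axis on which livers differed most, held 31.1% of the variance. It split the livers by series. It was -42.6 in LP+/+ replicate 1, -26.7 and -33.2 in LPfl/+ replicates 1 and 2, and between 15.1 and 28.2 in the others. LP245/+ and LPfl/+ livers share no series, so genotype and series cannot be told apart between them except through LP+/+ replicate 1.

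Of the 43 members, 37 had enough counts to be tested and 6 did not. The 6 were Tnf, which encodes the cytokine TNF, the chemokine genes Ccl3, Ccl4, Ccl22 and Cxcl2, and Ptgs2, which encodes an inducible prostaglandin synthase. Tnf had 1, 7 and 3 raw counts in LP+/+ replicates 1 to 3, 11 and 7 in LPfl/+ replicates 1 and 2, and 5, 4 and 1 in LP245/+ replicates 1 to 3, and no liver held more than 7 counts of any of the other 5. Among the members tested, the level per length, in TPM (counts per exon length, scaled to the same sum in each library), was highest for Nfkbia, which encodes the NF-kB inhibitor IkB alpha, with a mean of 53.8 TPM over the 8 livers, ahead of Ccl9 at 42.5, Il18 at 25.2, Tnfrsf1b at 19.5 and Il6ra at 12.5 TPM. The lowest of the 37 was Ccr1 at 0.336 TPM. The biological coefficient of variation, the spread within genotypes, had a median of 0.205 over the 37 members. Over the 16496 genes tested it was 0.165, without matching for count level. Among members it ran from 0.103 for Nfkb1 to 0.594 for Ccl2, so some lay below the median of all genes.

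The sequence just before the transcription start was looked at for 5 members, Tnfaip2, Icam1, Cxcl9, Cxcl10 and Il1b, because these were the members with lower values in LP245/+ than in LPfl/+ livers at an unadjusted p below 0.05. Each line holds the 250 bases before the RefSeq start in GRCm38.p6, 5′ to 3′ on the strand of the gene, with matches to an NF-kB motif in capitals. In the order of the lines, the windows lie at chr12:111442411-111442660 (plus strand), chr9:21015690-21015939 (plus), chr5:92328080-92328329 (minus), chr5:92348890-92349139 (minus) and chr2:129371140-129371389 (minus).
Tnfaip2: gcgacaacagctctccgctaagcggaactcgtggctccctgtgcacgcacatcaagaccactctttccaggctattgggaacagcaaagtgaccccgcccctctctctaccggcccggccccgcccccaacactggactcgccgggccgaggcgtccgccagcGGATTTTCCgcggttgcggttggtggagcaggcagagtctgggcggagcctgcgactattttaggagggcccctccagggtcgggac
Icam1: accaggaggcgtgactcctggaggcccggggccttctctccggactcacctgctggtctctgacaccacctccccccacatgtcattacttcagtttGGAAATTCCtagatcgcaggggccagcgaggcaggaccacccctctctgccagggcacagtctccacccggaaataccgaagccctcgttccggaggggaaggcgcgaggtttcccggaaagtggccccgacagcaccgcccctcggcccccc
Cxcl9: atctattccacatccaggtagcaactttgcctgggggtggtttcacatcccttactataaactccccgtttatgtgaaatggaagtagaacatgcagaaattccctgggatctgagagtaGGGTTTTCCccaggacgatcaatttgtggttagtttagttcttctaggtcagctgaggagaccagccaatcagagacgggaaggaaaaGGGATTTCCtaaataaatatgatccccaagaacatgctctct
Cxcl10: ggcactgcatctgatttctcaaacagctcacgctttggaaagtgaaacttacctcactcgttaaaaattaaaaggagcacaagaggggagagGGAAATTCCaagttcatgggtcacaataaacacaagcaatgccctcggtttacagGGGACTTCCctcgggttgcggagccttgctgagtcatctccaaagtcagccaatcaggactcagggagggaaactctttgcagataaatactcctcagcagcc
Il1b: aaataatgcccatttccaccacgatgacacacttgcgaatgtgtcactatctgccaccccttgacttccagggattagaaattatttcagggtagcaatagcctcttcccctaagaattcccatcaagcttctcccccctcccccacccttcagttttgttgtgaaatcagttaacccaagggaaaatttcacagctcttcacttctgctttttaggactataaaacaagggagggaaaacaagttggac

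The kB motif was searched on both strands in 3 spellings, where N is any base. The first is GGG and TTTCC with NN between them, the second is GGGNNTTCC and the third is GGANNTTCC. A place can match more than 1 spelling or both strands and is counted once. Cxcl9 held 2 such places, starting 130 and 42 bases before the start, and Cxcl10 held 2, at 158 and 103 bases. Icam1 held 1 place at 153 bases, Tnfaip2 held 1 at 87 bases, and Il1b held 0 in this window. GENCODE M21 starts Tnfaip2 earlier than RefSeq, at base 111442469 of chromosome 12, so its match lies inside the gene in that annotation. A window was given for 33 of the 43 members, and 15 of these (45.5%) held at least 1 match, against 10.2% of the 27025 genes with a window. The shares for the single spellings, in the order given, were 24.2%, 24.2% and 30.3% of the members against 1.65%, 5.61% and 4.12% of all genes. The list was made of NF-kB response genes, so its higher share cannot be read as a result of these data. A match is a run of letters and was not tested as a binding site. Whether matches go with lower values in LP245/+ livers was not tested.

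The cutoff asked for a log2 fold change of 1 or more in size together with an adjusted p of 0.05 or less (edgeR's quasi-likelihood test with Benjamini-Hochberg adjustment over all 16496 genes). With it, 0 of the 37 members passed in any of the 3 comparisons, where it called 0.00606% of all genes in LP245/+ against LP+/+ livers and 0.0% in each of the other two. In LP245/+ compared with LP+/+ livers, which differ in the converted allele and, by the labels, in Cre, 5 of 37 members had an unadjusted p below 0.05 in that test, 13.5% against 5.93% of all genes tested. Il1b, Relb, Tnfaip2 and Icam1 had lower values and Ccl9 higher ones, where 2.38% of all genes were lower and 3.55% higher at that p. The fitted log2 fold change was below 0 for 25 members and above 0 for 12, with a median of -0.13 beside 0.0029 over all genes. That median was -0.029 without LP+/+ replicate 2, -0.033 without LP245/+ replicate 1 and -0.081 without LP+/+ replicate 3. DESeq2 in place of edgeR gave 0 members past the cutoff and 4 with an unadjusted p below 0.05. The 5 became 2 without LP+/+ replicate 1, LP245/+ replicate 1 or LP245/+ replicate 3, and 3 without LP245/+ replicate 2.

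In LPfl/+ compared with LP+/+ livers, which differ in the loss of 1 allele and, by the labels, in Cre, 3 of 37 members (8.11%) had an unadjusted p below 0.05 with edgeR, close to the 6.89% of all genes. Cxcl9, Tnfaip2 and Tlr4 made up the 3, each with higher values in LPfl/+ livers, where 4.22% of all genes were higher at that p. The median log2 fold change of the members was 0.068 beside -0.0010 over all genes, with 21 above 0 and 16 below. It was -0.0069 without LPfl/+ replicate 1, 0.024 without LP+/+ replicate 3 and 0.12 with the series of library numbers in the fit. With DESeq2, 0 members passed the cutoff and 4 had an unadjusted p below 0.05. The 3 became 0 without LP+/+ replicate 3, 6 without LP+/+ replicate 2, and 5 without LPfl/+ replicate 1 or LP245/+ replicate 3.

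In LP245/+ compared with LPfl/+ livers, which sets the mutant allele against loss of 1 allele, 7 of 37 members (18.9%) had an unadjusted p below 0.05 with edgeR, against 8.51% of all genes. Lower in LP245/+ livers were Il1b, Cxcl9, Cxcl10, Tnfaip2 and Icam1, 5 of 37 (13.5%) where 4.44% of all genes were lower at that p. Il6ra and Nfkbiz were higher, 2 of 37 (5.41%) where 4.07% of all genes were higher. The median log2 fold change of the members was -0.081 beside 0.0039 over all genes. It ran from -0.31 (without LPfl/+ replicate 2) to -0.017 (without LPfl/+ replicate 1) with a liver left out, was -0.21 without LP245/+ replicate 2, -0.13 without LP245/+ replicate 3 and -0.036 without LP245/+ replicate 1, and was -0.40 with the series in the fit. With edgeR 0 members passed the cutoff, and with DESeq2 1 did, Tnfaip2, which also passed with edgeR without LP+/+ replicate 1, with only the 2 genotypes in the fit or, together with Cxcl9, without a filter on low counts. The 7 became 3 without LP245/+ replicate 1. Each comparison shares livers with the other two, so the 3 sets of calls are not independent.

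**Figure D1:**
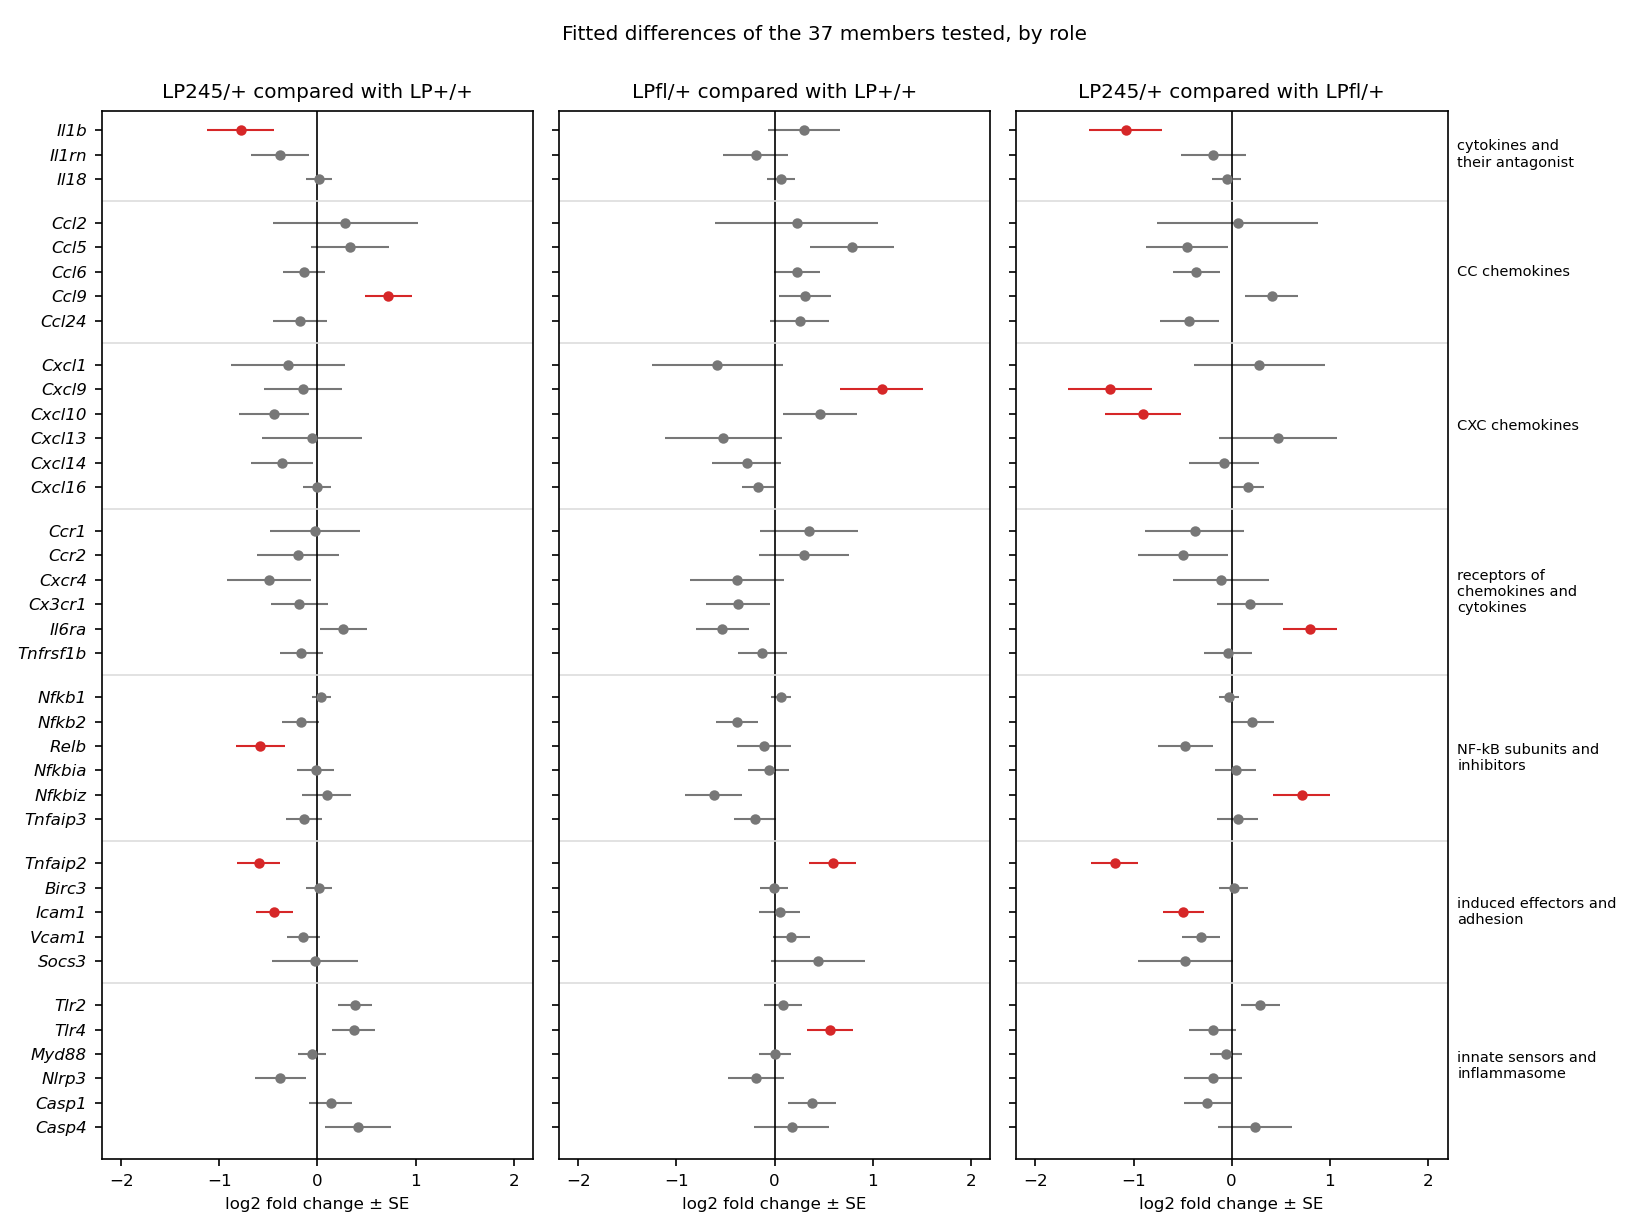
The log2 fold change (x axis, with its standard error) of each of the 37 members tested (y axis, grouped by role) in 3 comparisons of genotypes, from edgeR, with an unadjusted p below 0.05 in red. LP245/+ livers compared with LPfl/+ livers had 7 red points, and none of the red points in any panel passed the adjusted cutoff.

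Counted by whether the livers of 2 genotypes overlapped, Tlr2 was higher and Relb and Tnfaip2 were lower in every LP245/+ than in every LP+/+ liver, 1 member (2.7%) and 2 members (5.41%) where 6.03% and 5.79% of all genes behaved so. In LPfl/+ against LP+/+ livers, Ccl5 and Tlr4 were higher and Cxcl13 and Nfkb2 lower without overlap, 5.41% of the members each way against 11.9% and 13.2% of all genes. In LP245/+ against LPfl/+ livers, 9 members (24.3%) were lower without overlap, where 13.3% of all genes were, and 4 (10.8%) were higher, where 12.1% were. The 9 were Il1b, Ccl5, Ccl24, Cxcl9, Cxcl10, Relb, Tnfaip2, Icam1 and Casp1, and the 4 were Cxcl1, Il6ra, Nfkbiz and Tlr2. Those of these members without a p below 0.05 were named after their values were seen.

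**Figure D2:**
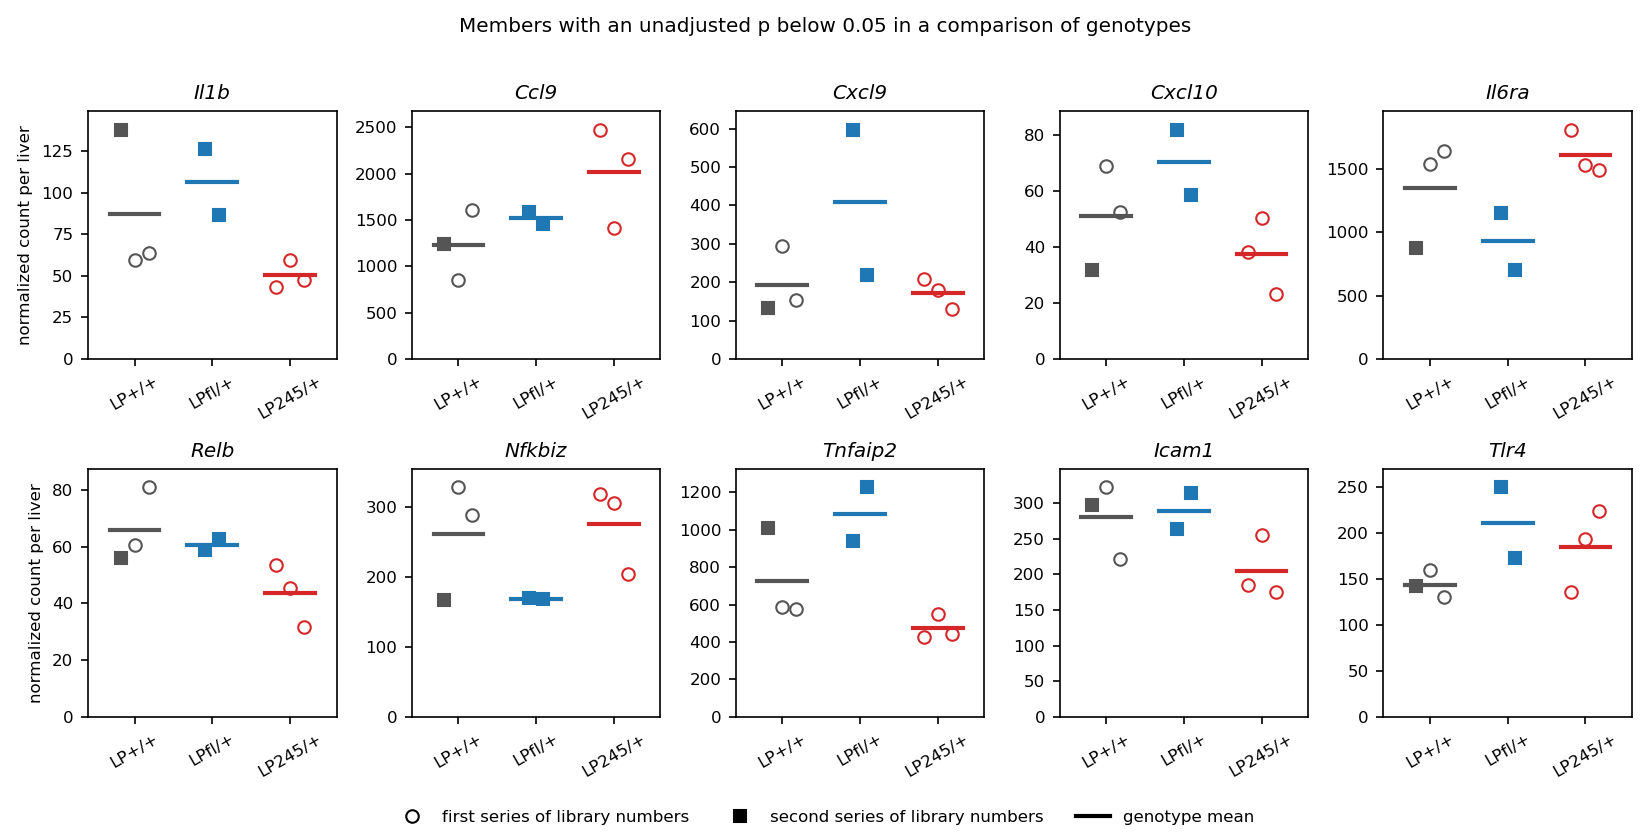
Normalized read count per liver (y axis, linear from 0) of the 10 members with an unadjusted p below 0.05 in at least 1 comparison, by genotype (x axis). Open circles are livers of the first series of library numbers, filled squares those of the second, and bars are genotype means. For Il1b and Tnfaip2 the square among the LP+/+ livers sits with the LPfl/+ squares, at 138 and 1007.

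Of the cytokines, Il1b, which encodes the NF-kB-induced and inflammasome-processed IL1 beta, had 138, 59.5 and 64.0 normalized read counts in LP+/+ replicates 1 to 3, 127 and 86.8 in LPfl/+ replicates 1 and 2, and 43.4, 59.6 and 47.9 in LP245/+ replicates 1 to 3. The LP245/+ livers were all below both LPfl/+ livers, and they overlapped the LP+/+ livers, of which replicate 1 stood well above the others. The mean was 50.3 ± 8.38 (SD) in LP245/+, 107 ± 28.1 in LPfl/+ and 87.2 ± 44.2 in LP+/+ livers. Its log2 fold change was -1.08 against LPfl/+ (standard error 0.37, adjusted p = 0.480 with edgeR) and -0.78 against LP+/+ (0.34, adjusted p = 0.831). With the series of library numbers in the fit, the value against LPfl/+ turned to 0.080 (SE 0.40). Livers are given in replicate order here and for the members that follow. Without LP+/+ replicate 1 the difference from LP+/+ was -0.28, and the log2 ratio of means taken inside the first series was -0.30.

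Il18, a cytokine gene that is expressed without induction, was the most counted of its group and nearly level, with 317, 330 and 301 normalized read counts in the LP+/+ group, 355 and 304 in the LPfl/+ group and 276, 309 and 367 across LP245/+ livers. The 3 genotypes overlapped, and no log2 fold change of Il18 was larger than 0.068. Il1rn, which encodes the IL1 receptor antagonist, had log2 fold changes of -0.38 (SE 0.30) in LP245/+ and -0.19 (SE 0.33) in LPfl/+ against LP+/+ livers. The genes Bco2 and Tex12 overlap Il18 on the opposite strand, Bco2 with a mean of 735 counts beside 322 for Il18, and the strand setting of the counting is not given in the sources used here.

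Of the 5 CC chemokine genes tested, Ccl9, which encodes a myeloid-cell attractant, had the highest level, with 1240, 855 and 1606 normalized read counts in the LP+/+ group, 1582 and 1461 in the LPfl/+ group and 2476, 1416 and 2161 across LP245/+ livers. Replicates 1 and 3 of LP245/+ were above all other livers, and replicate 2 lay inside the range of LP+/+. The fitted log2 fold change in LP245/+ against LP+/+ livers was 0.72, a fitted ratio of 1.65 (SE 0.24, adjusted p = 0.795 with edgeR). Within the first series the log2 ratio was 0.71, and with 1 liver left out the fold change ran from 0.50 to 0.95.

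The other 4 CC chemokine genes did not reach an unadjusted p of 0.05 in any comparison. Ccl2, whose product recruits monocytes through CCR2, had 3.86, 33.6 and 5.65 normalized read counts in the LP+/+ group, 13.2 and 20.2 in the LPfl/+ group and 20.7, 24.2 and 7.13 across LP245/+ livers. Its highest liver was 8.70 times its lowest, both of them LP+/+. Ccl5, a T cell attractant, was at 5.80, 6.72 and 9.41 in the LP+/+ group, at 14.2 and 11.1 in the LPfl/+ group and at 10.3, 9.09 and 8.15 across LP245/+ livers, and the LPfl/+ livers were above all others. Ccl6 and Ccl24, which attract myeloid cells and eosinophils, had log2 fold changes of 0.23 and 0.26 in LPfl/+ and of -0.13 and -0.17 in LP245/+ against LP+/+ livers.

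Among CXC chemokine genes, Cxcl9 and Cxcl10 encode ligands of CXCR3, a chemokine receptor on T cells, and are induced by interferon gamma and NF-kB, and both hold kB matches in the windows printed above. Cxcl9 had 133, 294 and 152 normalized read counts in the LP+/+ group, 598 and 220 in the LPfl/+ group and 209, 181 and 129 across LP245/+ livers. LPfl/+ replicate 1 stood apart from every other liver, and LPfl/+ replicate 2 lay inside the LP+/+ range and above the 3 LP245/+ livers. The mean was 409 ± 267 (SD) in LPfl/+, 193 ± 87.7 in LP+/+ and 173 ± 40.3 in LP245/+ livers. The log2 fold change was 1.09 in LPfl/+ against LP+/+ (SE 0.43, adjusted p = 0.704 with edgeR) and -1.24 in LP245/+ against LPfl/+ (SE 0.43, adjusted p = 0.484). Without LPfl/+ replicate 1 these were 0.18 and -0.34, and with the series in the fit 1.62 and -1.98.

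Cxcl10 had 31.9, 69.2 and 52.7 normalized read counts in the LP+/+ group, 82.1 and 58.6 in the LPfl/+ group and 38.2, 50.5 and 23.4 across LP245/+ livers. Its order of livers was like that of Cxcl9, with LPfl/+ replicate 1 highest and LP245/+ replicate 3 lowest, and the LP245/+ livers were below both LPfl/+ livers. Its log2 fold change in LP245/+ against LPfl/+ livers was -0.90 (SE 0.39, adjusted p = 0.561 with edgeR), and with 1 liver left out it ran from -1.19 to -0.64. With the series in the fit it was -1.83 (SE 0.58). Art3 overlaps Cxcl10 on the opposite strand, with a mean of 64.3 counts beside 51.3 for Cxcl10.

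The other 4 CXC chemokine genes tested had no unadjusted p below 0.05. Cxcl1, which encodes a neutrophil attractant, had 56.0, 309 and 49.9 normalized read counts in the LP+/+ group, 94.2 and 88.9 in the LPfl/+ group and 115, 117 and 102 across LP245/+ livers. LP+/+ replicate 2 stood apart from the others and was also the highest for Ccl2 and for Ccr2, so 1 control liver carried the highest values of 3 recruitment genes. Cxcl13, a B cell attractant, was at 25.1, 17.3 and 30.1 in the LP+/+ group, at 16.2 and 17.2 in the LPfl/+ group and at 20.7, 41.4 and 7.13 across LP245/+ livers. Cxcl16, a scavenger receptor and chemokine, stayed between 204 and 276 in all 8 livers, and Cxcl14 between 20.4 and 43.5.

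Of the receptor genes, Il6ra, which encodes the IL6 receptor alpha chain that hepatocytes use for the acute-phase response, was the most counted. It had 878, 1537 and 1637 normalized read counts in the LP+/+ group, 1152 and 704 in the LPfl/+ group and 1808, 1526 and 1489 across LP245/+ livers. The 3 lowest livers were the 3 of the second series of library numbers, 1 of them LP+/+. The fitted log2 fold change in LP245/+ against LPfl/+ livers was 0.80, a fitted ratio of 1.74 (SE 0.27, adjusted p = 0.482 with edgeR), and -0.057 (SE 0.31) with the series as a covariate. The hepatocyte markers stood the same way, with 8 of 8 log2 fold changes above 0 in LP245/+ against LPfl/+ livers (median 0.18). Of these 8, 1 (Hnf4a) had an unadjusted p below 0.05 with edgeR. In LPfl/+ against LP+/+ livers 7 of 8 were below 0 (median -0.25). The sum of these markers was 2953708 in LP+/+ replicate 1 and 3811200 and 4275672 in replicates 2 and 3. It was 3168296 and 2896658 in LPfl/+ livers and 3007656 to 3558199 in LP245/+ livers. Alb made up most of this sum in every liver, so the sum mainly follows Alb. The markers' part in Il6ra was not tested. For Il6ra within the second series, LPfl/+ livers had a log2 ratio of 0.079 to LP+/+ replicate 1. Within the first, LP245/+ livers had one of 0.018 to LP+/+ replicates 2 and 3. Without LPfl/+ replicate 2 the difference from LPfl/+ was 0.49.

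The other 5 receptor genes had log2 fold changes with no unadjusted p below 0.05. Ccr2, the monocyte receptor of CCL2, was at 50.2, 135 and 43.3 normalized read counts in the LP+/+ group, at 88.1 and 97.9 in the LPfl/+ group and at 45.5, 63.7 and 88.6 across LP245/+ livers. Tnfrsf1b, which encodes TNF receptor 2, ran from 584 to 1200, and its highest and lowest livers were the 2 LPfl/+ livers. Ccr1, Cx3cr1 and Cxcr4, receptors on myeloid and lymphoid cells, had at most 66.8 normalized read counts in any liver.

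Of the NF-kB subunits and inhibitors, the subunit gene Nfkb1 was the most even of the 37 members, with 1064, 1156 and 1033 normalized read counts in the LP+/+ group, 1068 and 1190 in the LPfl/+ group and 1053, 1190 and 1073 across LP245/+ livers. Against LP+/+ livers it differed by 0.040 in LP245/+ and by 0.068 in LPfl/+ livers on the log2 scale (SE 0.094 and 0.10), and LP245/+ differed from LPfl/+ by -0.028 (SE 0.10). Nfkbia, itself a target of NF-kB that feeds back on it, had log2 fold changes of -0.020 and -0.060 against LP+/+ livers (SE 0.19 and 0.21), LP245/+ first. Tnfaip3, whose product A20 also limits NF-kB, had -0.14 and -0.20 (SE 0.19 and 0.21).

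Relb, which encodes a subunit of the alternative NF-kB pathway, had 56.0, 60.5 and 80.9 normalized read counts in the LP+/+ group, 58.8 and 62.6 in the LPfl/+ group and 53.7, 45.5 and 31.6 across LP245/+ livers. All LP245/+ livers were below all others. The log2 fold change was -0.58 against LP+/+ (SE 0.25, adjusted p = 0.831 with edgeR) and -0.47 against LPfl/+ (SE 0.28), and within the first series of library numbers the log2 ratio to LP+/+ was -0.70. Its partner gene Nfkb2 was at 172, 201 and 205 in the LP+/+ group, at 156 and 137 in the LPfl/+ group and at 198, 185 and 125 across LP245/+ livers. The LPfl/+ livers were below the LP+/+ livers, and the LP245/+ livers spanned both.

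Nfkbiz, which encodes the nuclear regulator IkB zeta, had 166, 328 and 289 normalized read counts in the LP+/+ group, 169 and 168 in the LPfl/+ group and 318, 305 and 204 across LP245/+ livers. As for Il6ra, the 3 livers of the second series were the 3 lowest, at 166 to 169. Between fitted means, the log2 fold change in LP245/+ against LPfl/+ livers was 0.71 (SE 0.29, adjusted p = 0.544 with edgeR) and 0.092 against LP+/+ livers (SE 0.25). With the series in the fit the first of these turned to -0.18 (SE 0.34).

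Of the induced effectors, Tnfaip2, a TNF-induced gene of endothelium and myeloid cells, had the highest counts of its group and the smallest p of any member. It had 1007, 585 and 578 normalized read counts in the LP+/+ group, 940 and 1225 in the LPfl/+ group and 429, 549 and 442 across LP245/+ livers. The LP245/+ livers were below every liver of the other 2 genotypes, and LP+/+ replicate 1 lay between the LPfl/+ livers. The mean was 473 ± 65.7 (SD) in LP245/+, 1083 ± 201 in LPfl/+ and 723 ± 246 in LP+/+ livers. The log2 fold change was -1.19 against LPfl/+ (SE 0.24, unadjusted p = 0.000597, adjusted p = 0.362 with edgeR), -0.60 against LP+/+ (SE 0.22, adjusted p = 0.795) and 0.59 in LPfl/+ against LP+/+ (SE 0.24, adjusted p = 0.704). With DESeq2 the first of these had an adjusted p of 0.00118. Within series the log2 ratios to LP+/+ were -0.30 for LP245/+ and 0.10 for LPfl/+ livers, and without LP+/+ replicate 1 the fitted values were -0.28 and 0.91. Without LPfl/+ replicate 2 the value for LPfl/+ against LP+/+ was 0.37, and with the series in the fit it was 0.11 and that for LP245/+ against LPfl/+ was -0.40 (SE 0.25).

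Icam1, which encodes the adhesion molecule by which leukocytes hold on to endothelium, had 297, 322 and 222 normalized read counts in the LP+/+ group, 263 and 314 in the LPfl/+ group and 185, 255 and 175 across LP245/+ livers. LP245/+ replicates 1 and 3 were below every liver of the other genotypes, and replicate 2 lay inside the LP+/+ range. Its log2 fold change was -0.44 against LP+/+ (SE 0.19, adjusted p = 0.831 with edgeR) and -0.49 against LPfl/+ (SE 0.21, adjusted p = 0.571), and within the first series the log2 ratio to LP+/+ was -0.41. Vcam1, a second adhesion molecule gene, had -0.14 (SE 0.17) and -0.31 (SE 0.19) in the same comparisons. Birc3, which encodes an inhibitor of cell death, stayed between 387 and 504 in all livers. Socs3, the feedback inhibitor of IL6 signalling, was at 69.6, 183 and 97.9 in the LP+/+ group, at 71.9 and 243 in the LPfl/+ group and at 105, 116 and 119 across LP245/+ livers, and its extremes lay in the control and LPfl/+ livers.

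Of the innate sensors, Tlr4, the receptor of bacterial lipopolysaccharide, had 142, 159 and 130 normalized read counts in the LP+/+ group, 249 and 173 in the LPfl/+ group and 135, 193 and 224 across LP245/+ livers. Both LPfl/+ livers were above the LP+/+ livers, LPfl/+ replicate 2 by a small margin, and the LP245/+ livers overlapped both groups. The log2 fold change in LPfl/+ against LP+/+ livers was 0.56 (SE 0.24, adjusted p = 0.718 with edgeR), 0.57 as a log2 ratio within the second series, and 0.26 without LPfl/+ replicate 1. Tlr2, the receptor of bacterial lipoproteins, was at 99.5, 83.6 and 95.0 in the LP+/+ group, at 99.3 and 96.9 in the LPfl/+ group and at 118, 137 and 105 across LP245/+ livers, so all LP245/+ livers were above all others. Its log2 fold changes were 0.38 (SE 0.17) and 0.29 (SE 0.19) against LP+/+ and LPfl/+, neither with an unadjusted p below 0.05.

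Myd88, the adaptor of Toll-like and IL1 receptors and the most counted of the sensor group, had 268, 338 and 361 normalized read counts in the LP+/+ group, 307 and 336 in the LPfl/+ group and 271, 338 and 317 across LP245/+ livers. The 3 genotypes overlapped, with log2 fold changes of -0.053 in LP245/+ and 0.0054 in LPfl/+ against LP+/+ livers and of -0.059 in LP245/+ against LPfl/+ livers. Acaa1a lies across Myd88 on the opposite strand, with a mean of 2582 counts beside 320. The inflammasome genes Nlrp3, Casp1 and Casp4 had log2 fold changes of -0.38, 0.13 and 0.41 in LP245/+ and of -0.19, 0.38 and 0.17 in LPfl/+ against LP+/+ livers, none with an unadjusted p below 0.05. Overlapping genes with a mean count above 10% of that of the member were found for 6 of the 43 members, Il18, Cxcl10, Cxcl16, Cx3cr1, Nfkb2 and Myd88.

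**Figure D3:**
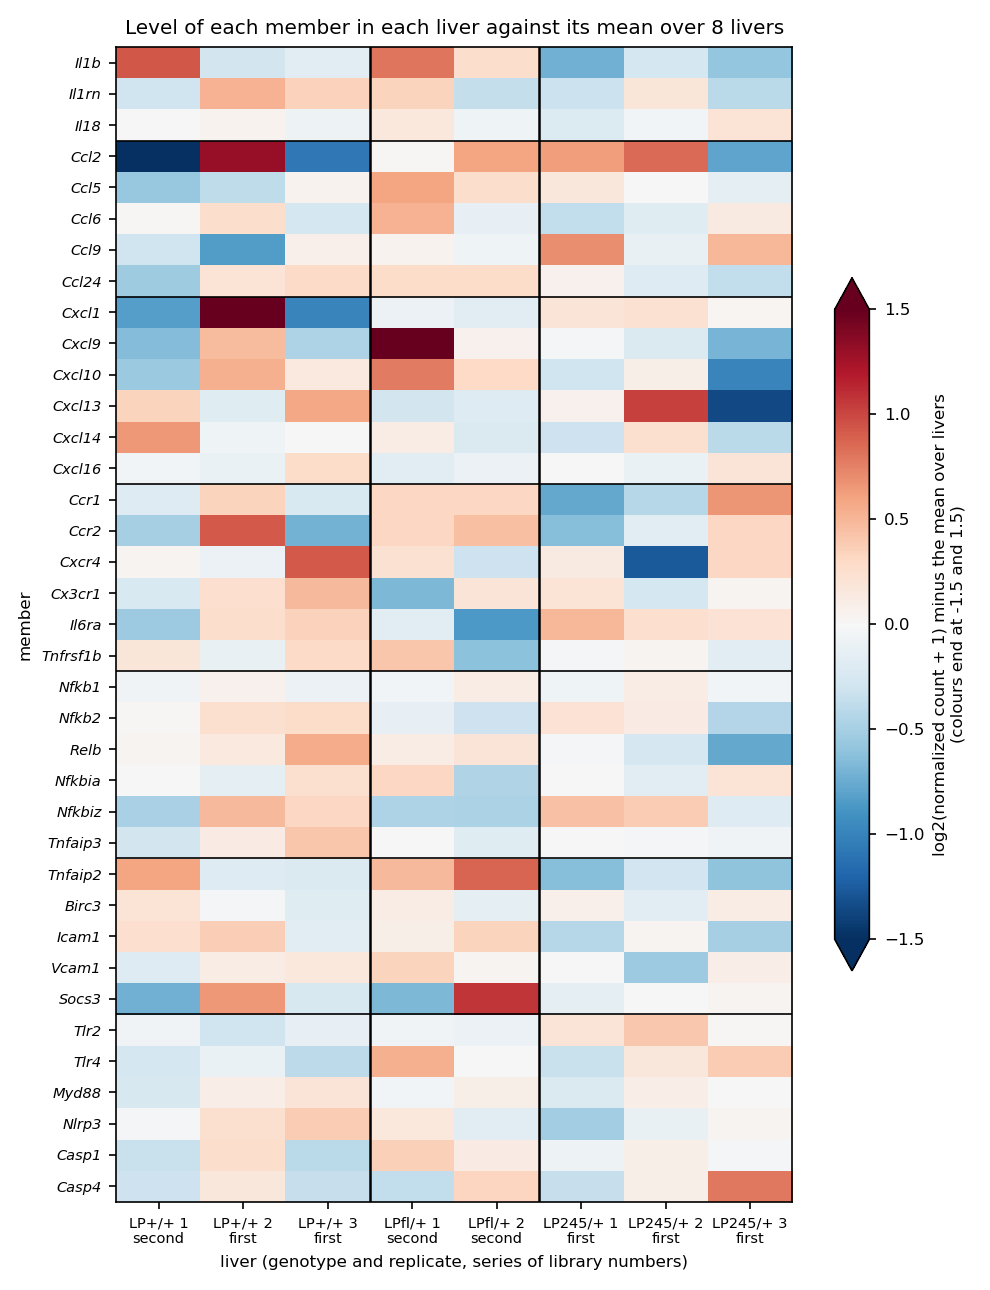
Level of the 37 members tested (y axis, in role order) in the 8 livers (x axis, with genotype, replicate and series of library numbers), as log2(normalized count + 1) minus the mean of the member over the livers. Rows with the strongest colour in 1 liver include Cxcl1 in LP+/+ replicate 2 and Cxcl9 in LPfl/+ replicate 1. The Ccl2 row has strong colours in several livers, and the Nfkb1 row is nearly white.

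The members were also summed up liver by liver. Measured as the log2 of counts scaled to library size, minus the mean over the 8 livers, the median over the 37 members was -0.20, 0.14 and 0.037 in LP+/+ replicates 1 to 3, 0.12 and 0.014 in LPfl/+ replicates 1 and 2, and -0.012, 0.0089 and 0.00023 in LP245/+ replicates 1 to 3. LP+/+ replicates 1 and 2 were the extremes, so the control group held the widest range. LP+/+ replicate 3 and LPfl/+ replicate 1 were each the highest liver for 9 of the 37 members, where they were the highest for 9.75% and 11.6% of all genes, and LP245/+ replicate 3 was the lowest for 8 members, where it was for 16.2% of all genes.

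Of 77 further genes of the same pathways, 63 were tested with edgeR. In LP245/+ against LP+/+ livers 2 of 63 (3.17%) had an unadjusted p below 0.05, 1 in each direction, against 5.93% of all genes. Il1r1, the signalling receptor of IL1, had 1192, 1566 and 1477 normalized read counts in LP+/+ and 2088, 1730 and 1840 in LP245/+ livers, which did not overlap (log2 fold change 0.43, SE 0.13, adjusted p = 0.795 with edgeR). Ackr2, a decoy receptor that clears CC chemokines, was lower in LP245/+ livers, with a log2 fold change of -0.40 (SE 0.17, adjusted p = 0.831 with edgeR).

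In LPfl/+ against LP+/+ livers 3 of 63 (4.76%) had an unadjusted p below 0.05, all with lower values, against 6.89% of all genes. Ackr2 was at 148, 147 and 152 normalized read counts in LP+/+ and at 90.2 and 87.8 in LPfl/+ livers, which did not overlap (log2 fold change -0.73, SE 0.20, adjusted p = 0.697 with edgeR). Ticam1, the adaptor TRIF of TLR3 and TLR4, and Cx3cl1, the ligand of CX3CR1, had log2 fold changes of -0.70 and -1.03 (SE 0.25 and 0.40). In LP245/+ against LPfl/+ livers 8 of 63 (12.7%) had an unadjusted p below 0.05, against 8.51% of all genes, 3 higher and 5 lower where 4.07% and 4.44% of all genes were. Ticam1 had 292, 441 and 381 in the LP+/+ group, 226 and 227 in the LPfl/+ group and 550, 514 and 315 across LP245/+ livers, a log2 fold change of 1.02 between the last 2 (SE 0.25, adjusted p = 0.362 with edgeR). Il1r1 differed by 0.56 in the same comparison (SE 0.14, adjusted p = 0.362 with edgeR), and Il18rap, a chain of the IL18 receptor with at most 27.4 normalized read counts, by -1.70 (SE 0.62, adjusted p = 0.506). LP245/+ and LPfl/+ livers share no series of library numbers. For Ticam1 and Il1r1, LP+/+ replicate 1, of the second series, was the lowest LP+/+ liver. Values with the series in the fit are not given for these further genes. The median of the 63 log2 fold changes was -0.017, 0.0080 and -0.0042 in the 3 comparisons in the order above.

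Marker genes of liver cell types were read beside the members, as summed normalized read counts over each list. The 8 Kupffer cell markers (Clec4f, Vsig4, Timd4, Cd5l, Marco, Adgre1, C1qa and C1qb) summed to between 9876 and 11517 in the LP+/+ group, 10054 and 13849 in the LPfl/+ group and 8378 and 10053 across LP245/+ livers. In LP245/+ against LP+/+ livers 8 of 8 had a log2 fold change below 0 and 0 of 8 an unadjusted p below 0.05 with edgeR, and in LP245/+ against LPfl/+ livers 7 of 8 were below 0, with 3 of 8 (Vsig4, C1qa and C1qb) under that p. LPfl/+ replicate 1, the highest liver for Cxcl9, Cxcl10 and 7 other members, also had the highest sum. The part of the cell type in the lower values of Il1b, Cxcl9, Cxcl10, Tnfaip2 and Icam1 was not tested.

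The 6 neutrophil markers summed to between 104 and 123 in the LP+/+ group, 133 and 144 in the LPfl/+ group and 95.0 and 117 across LP245/+ livers. Of the 3 tested, S100a9 had higher values in LPfl/+ livers than in LP+/+ and LP245/+ livers at an unadjusted p below 0.05, and Ly6g, which defines neutrophils, was at 0 in every liver. The 8 T and NK cell markers summed to between 78.1 and 197 in the LP+/+ group, 125 and 132 in the LPfl/+ group and 54.6 and 134 across LP245/+ livers, with no unadjusted p below 0.05 among the 5 tested. The 8 monocyte and lipid-associated macrophage markers summed to between 2203 and 2603, 2242 and 2268, and 2327 and 2646 in the same order. The 7 sinusoidal endothelial markers, read because endothelium also makes Icam1 and Vcam1, summed to between 13233 and 15845 in the LP+/+ group, 10417 and 13245 in the LPfl/+ group and 13991 and 15531 across LP245/+ livers, and 7 of 7 had a log2 fold change above 0 in LP245/+ against LPfl/+ livers, 1 with an unadjusted p below 0.05. The sums ran from 98.0 to 238 over all livers for 6 B and plasma cell markers, from 11909 to 15099 for 7 stellate cell and fibroblast markers and from 108 to 205 for 5 bile duct markers. In LP245/+ against LPfl/+ livers 5 of 5 B and plasma cell markers tested, 4 of 4 bile duct markers and 5 of 7 stellate cell markers had a log2 fold change above 0, with 1 stellate cell marker at an unadjusted p below 0.05. In LPfl/+ against LP+/+ livers 4 of 5 B and plasma cell markers were below 0, 1 of them at that p. The parts of these cell types in the members' values were not tested.

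The series of library numbers moved with several calls in LP245/+ against LPfl/+ livers. With the series as a covariate, for which LP+/+ replicate 1 is the only link between the 2 genotypes, the log2 fold changes of Il1b, Il6ra and Nfkbiz changed sign and that of Tnfaip2 came nearer to 0, as given above. That of Icam1 went from -0.49 to -0.36 (SE 0.36). Cxcl9 and Cxcl10 lay farther below 0, with adjusted p of 0.788 and 0.665 with edgeR. Counted over the members, 3 of 37 had an unadjusted p below 0.05 in that fit, Cxcl9, Cxcl10 and Ccl24, all lower, where 5.27% of all genes did. In LP245/+ against LP+/+ livers the same term left 2 of 37, Ccl9 and Relb, where 6.65% of all genes had such a p.

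**Figure D4:**
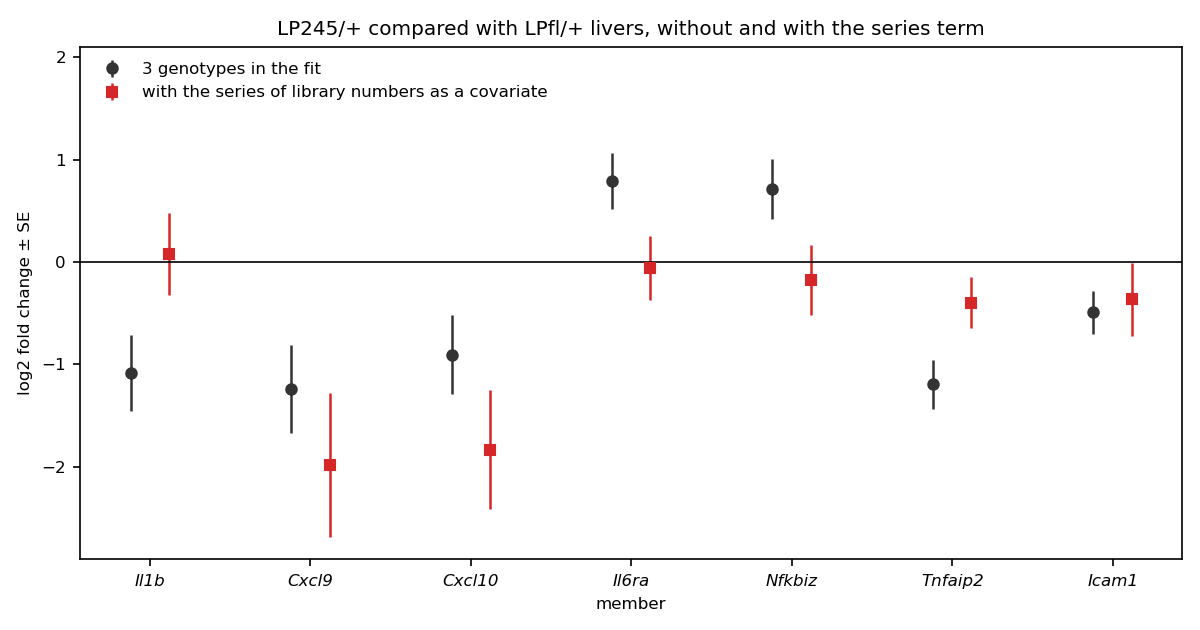
Log2 fold change with its standard error (y axis) in LP245/+ compared with LPfl/+ livers for the 7 members (x axis) with an unadjusted p below 0.05, from edgeR without (circles) and with (squares) a covariate for the series of library numbers. Il1b, Il6ra and Nfkbiz sat near or across 0 with the term, and Cxcl9 and Cxcl10 moved farther below 0.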

How the data were processed

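RNA was extracted by the authors from flash-frozen liver of 8 mice, stranded total RNA libraries were sequenced in pairs, and reads were aligned to GRCm38 with STAR and counted per gene with STAR on a GENCODE annotation, whose release is not given in the sources used here. The deposited values are raw counts per gene, without normalization. Per liver they summed to 26304526 to 31370714. Each of the 8 columns carries the name of 1 sample, and 0 columns had none. Symbols, positions and merged exon lengths (for TPM) came from GENCODE M21, which gave a symbol to 49326 of 49585 genes.

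Genotypes were compared with edgeR 4.0.16 (R 4.3.3): TMM factors, filterByExpr, a quasi-likelihood fit over the 3 genotypes and Benjamini-Hochberg adjustment over 16496 genes, with the cutoff taken from the study (absolute log2 fold change of at least 1, adjusted p of at most 0.05). The study used DESeq2, here an alternative (version 1.42.0). Tested on simulated data for LP245/+ compared with LP+/+ livers, edgeR recovered 200 of 200 changed genes among 16121, with 5 false calls. The dispersion (the square of the biological coefficient of variation) was set to 0.04 there. Recovery at the members' own counts, spread and fold changes was not tested. A count of 3 was taken as the detection floor, and counting error is the only error such a floor covers. No 2 libraries agreed within sampling noise. The 43 members, their role lists, the 77 further genes and the marker lists were chosen with earlier results of these data known. A member was given liver by liver if its unadjusted p was below 0.05 in a comparison or its mean count was the highest of its role list, up to 3 further genes per comparison were named by smallest p, and others were named after their values were seen. Alternatives were another test, normalization, filter or set of samples, a replicate block, the series of library numbers and each liver left out. Correlations of same-numbered livers, taken on deviations from genotype means, ran from -0.082 to 0.034. With so few livers in a genotype they cannot settle whether replicate numbers pair the livers. Promoter windows are from RefSeq (GRCm38.p6).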

Additional observations from a re-analysis of the deposited data

How the results depend on the processing

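Numbers of members past the cutoff were 0 in LP245/+ and in LPfl/+ livers against LP+/+ livers under every alternative run. In LP245/+ against LPfl/+ livers the number was 1 with DESeq2, 2 without a filter on low counts and 1 with only the 2 genotypes in the fit, and 0 to 1 with a liver left out, the 1 being without LP+/+ replicate 1. Members with an unadjusted p below 0.05, 5 in LP245/+ against LP+/+ livers, were 3 on library totals, 3 with the replicate block and 2 with a covariate for the library number series, and 2 to 5 with a liver left out (2 without LP+/+ replicate 1, LP245/+ replicate 1 or LP245/+ replicate 3, and 3 without LP245/+ replicate 2). In LPfl/+ against LP+/+ livers the 3 became 5 without a filter, 1 with only 2 genotypes and 1 with the replicate block, and 0 to 6 with a liver left out (0 without LP+/+ replicate 3, 6 without LP+/+ replicate 2, 5 without LPfl/+ replicate 1 or LP245/+ replicate 3). In LP245/+ against LPfl/+ livers the 7 became 3 with the series covariate and 5 with the replicate block, and 3 to 7 with a liver left out (3 without LP245/+ replicate 1). The median log2 fold change of the members there went from -0.081 to -0.40 with the series covariate, and lay between -0.31 (without LPfl/+ replicate 2) and -0.017 with a liver left out. Against LP+/+ it lay between -0.16 and -0.029 for LP245/+ and between -0.0069 and 0.095 for LPfl/+ livers. The correlations of same-numbered livers stayed below 0.1. They were taken on deviations from the means of genotypes with 2 or 3 livers, so they cannot settle whether the livers are paired. What a call lost under the block stands for was not tested.

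Under another setting, the log2 fold changes of Il18, Myd88 and Nfkb1 that changed sign were near 0 in the fit over the 3 genotypes. Those of Il1b, Il6ra and Nfkbiz that changed sign were not. For Il18 in LP245/+ against LP+/+ livers the value was -0.00047 on library totals. For Myd88 in LPfl/+ against LP+/+ livers it was -0.0035 with DESeq2 and -2.2e-05 without a filter. For Il6ra in LPfl/+ against LP+/+ livers it went from -0.53 to 0.087 with the series covariate, and was 0.079 within the second series. In LP245/+ against LPfl/+ livers it was 0.0011 for Nfkb1 with the replicate block. With the series covariate it went there from -1.08 to 0.080 for Il1b, from 0.80 to -0.057 for Il6ra and from 0.71 to -0.18 for Nfkbiz. The cause was not tested. With a liver left out, values of Cxcl9 ran from -0.35 to 0.28, of Il18 from -0.11 to 0.098, of Myd88 from -0.17 to 0.031 and of Nfkb1 from -0.019 to 0.077 in LP245/+ against LP+/+ livers. They ran from -0.060 to 0.16 for Il18, from -0.11 to 0.085 for Myd88 and from -0.028 to 0.13 for Nfkb1 in LPfl/+ against LP+/+, and from -0.16 to 0.065, -0.13 to 0.030 and -0.10 to 0.057 in LP245/+ against LPfl/+ livers. Groups of 2 and 3 livers limit the precision, and the 6 members with few counts could not be compared at this depth.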
